A study of Caenorhabditis elegans with 4 samples.

Results

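Binding sites of the nuclear hormone receptor NHR-23 were examined where they lay in clusters along the genome of Caenorhabditis elegans L3 larvae. A cluster, called a chain here, was a run of peaks in which each peak centre lay 2000 bp or less from the next, and only chains of at least 3 peaks were taken. The combined peak list held 6178 rows, of which 36 repeated a region already listed, and 1376 of the remaining 6142 peaks (22.4%) fell into 363 such chains. A further 1328 peaks (21.6%) formed 664 pairs, and 3438 (56.0%) had no other combined peak within 2000 bp and are called isolated. The chains were chosen from the positions of the same list, so their number, spacing and location are descriptions. With a limit of 1000 bp the count fell to 321 peaks in 97 chains, and with the better 50% of the combined list alone to 243 peaks in 73 chains.

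The peaks come from chromatin immunoprecipitation with sequencing (ChIP-seq), in which DNA crosslinked to a protein is recovered with an antibody and sequenced. The labels describe 4 samples from strain OP43, 2 ChIP and 2 Input, all hermaphrodites grown at 20 °C and fixed with 2% formaldehyde. Every sample has the same genotype: the mutation unc-119(ed3) together with wgIs43, an nhr-23 transgene tagged with TY1, EGFP and FLAG that carries unc-119 as rescue. The transgene was introduced by bombardment, per the labels, and the material was whole larvae, so sites of all NHR-23-expressing tissues are mixed. Peak lists were used for ChIP replicate 1 (30000 rows) and ChIP replicate 2 (25173 rows), and for the combined list. Input values were not analysed here, read depth is unknown, and the labels do not say whether the replicates were separate cultures.

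NHR-23 is a DNA-binding transcription factor of the nuclear hormone receptor family, related to fly Hr3 and to the vertebrate ROR receptors. It is needed for moulting, the shedding and rebuilding of the cuticle at the end of each larval stage, and acts largely in the epidermis. Several nearby binding sites for one factor are a common arrangement in regulatory DNA, and stretches of worm chromatin bound by many unrelated factors are also known. Genes next to the chains are not named, since the gene table used here follows another genome build, and no sequence is printed because no genome of the files' build, WS220, was used here.

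Most chains were small. Of the 363, 221 held 3 peaks, 83 held 4 and 59 held 5 or more, and these last contained 381 peaks. The 9 chains with 8 or more peaks together held 95. From the first to the last base, chains had a median span of 2836 bp, with quartiles at 2300 and 3781 bp. In all they covered 1200 kb, or 1.20% of the nuclear span of 100.2 Mb reached by the lists. Chains were themselves scattered: the median distance between neighbouring chains on a chromosome was 149.1 kb, and 30 of 357 such distances (8.40%) were 10 kb or less.

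The longest run of sites was on X, from 6735537 to 6750563 in WS220, with 16 peaks in 15.0 kb. Its peaks 6 and 7 overlapped each other, as did peaks 8 and 9. Each peak has a running number, which is taken here to order the list from strong to weak. The score of the combined list is constant and cannot check this order. In the combined list the numbers of these 16 ran from 99 to 4573 with a median of 1514. The nearest replicate 1 peaks had numbers from 212 to 6779 (median 1354), and the nearest replicate 2 peaks from 26 to 10456 (median 1845.5). All 16 thus had a counterpart in both replicates, and 8 of them were in part 1 when the combined list was cut by number into 4 parts of equal size, with 0 in part 4, the weakest. The strong sites were spread through the run rather than gathered at one point. From the left, number 99 was peak 3, number 303 peak 7, number 181 peak 10 and number 367 peak 15, with peaks numbered 4573, 4032 and 4160 between them. The replicates differed on peak 10, which had number 1237 in replicate 1 and 26 in replicate 2.

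Next in size were 2 chains of 13 peaks on chromosome II. The chain from 10546019 to 10560031 was dominated by 1 site, number 64 in the combined list, 74 in replicate 1 and 69 in replicate 2. Its next best member had number 1433, and the combined median was 3446 (3736 in replicate 1 and 4509 in replicate 2). The first peak of the whole combined list, from 10563360 to 10563672, lay 3.33 kb beyond the end of this chain and was itself isolated by the 2000 bp limit. The chain was also the one nearest to that limit. Peaks 2 and 3 of it were exactly 2000 bp apart, so that a limit 1 bp shorter would have left 11 peaks in it.

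The other chain of 13, from 6821050 to 6837533, had the largest span of all, 16.5 kb, and no peak among the first 1000. Its numbers ran from 1105 to 5004 in the combined list (median 2626), from 1424 to 9067 in replicate 1 (median 2853) and from 714 to 5355 in replicate 2 (median 3078). Unlike the other 13-peak chain, it had no single site that stood far ahead of the rest: 4 peaks had combined numbers from 1105 to 1984.

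Chains of 10 peaks lay on chromosome I from 527190 to 537020, with a best combined number of 74, and on chromosome II from 1233030 to 1244758, with a best number of 1365. They were followed by 9 peaks on X from 15272826 to 15281525 and by chains of 8 on chromosome I from 5876554 to 5884027, chromosome V from 12548723 to 12557067 and X from 4140905 to 4148152. Of the 12 chains of 7 peaks, the one with the best single peak lay on chromosome I from 13059428 to 13066145. It mixed very strong and weak sites in both replicates, with combined numbers of 5379, 1412, 455, 3158, 42, 2421 and 207 from left to right. The replicate 1 numbers in the same order were 3261, 1580, 711, 3436, 41, 4117 and 312, and the replicate 2 numbers 10195, 1076, 381, 2789, 37, 1700 and 147. Peaks 5, 7 and 3 were, in this order, the strongest in each list.

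**Figure D1:**
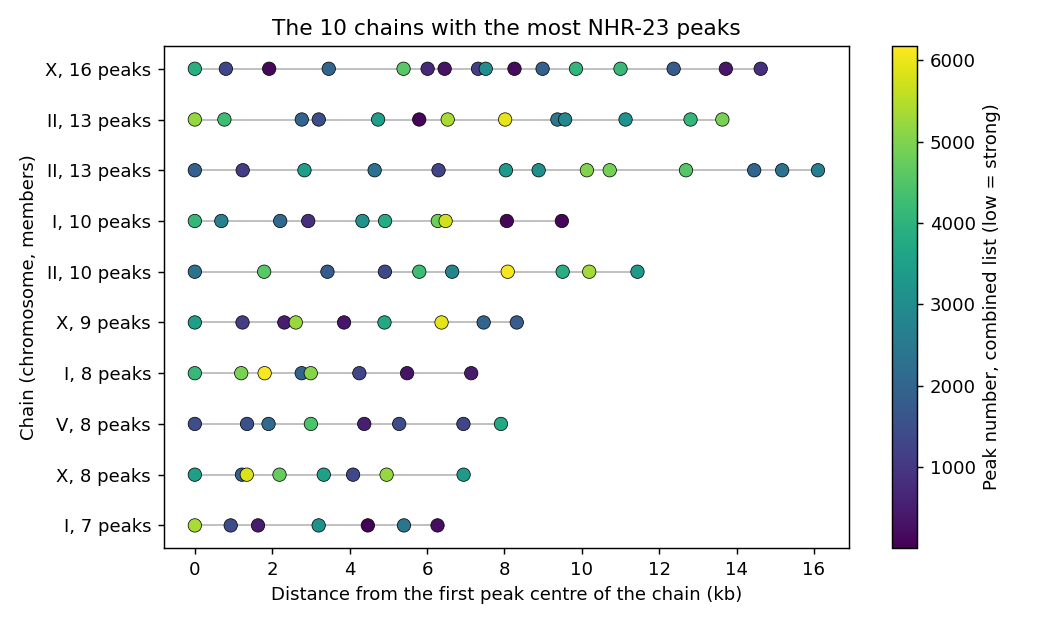
Positions of the peaks in the 9 chains of 8 or more members and in the chain of 7 with the best single peak, as the distance in kb of each peak centre from the first centre of its chain; the colour gives the peak number in the combined list, low numbers being strong. The 16-peak chain on X holds 8 peaks of part 1 of the list spread along its length, while the upper of the 13-peak chains on chromosome II has 2 peaks in the same part of the list, numbers 64 and 1433, among weaker ones.

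Ranked by the number of their member 3 in strength, the 5 strongest chains included the X run and the last chain above, and 3 shorter ones. On chromosome III from 1923527 to 1926744, 4 listed peaks had combined numbers 276, 5930, 32 and 81. Their nearest replicate 1 peaks were numbers 175, 175, 33 and 63, and their nearest replicate 2 peaks numbers 504, 504, 40 and 143. Peaks 1 and 2 shared a start and differed by 3 bp at their ends, and both matched the same peak in each replicate. On chromosome I from 10402779 to 10407909, 6 peaks had combined numbers 4923, 284, 3116, 239, 413 and 4594. The last of these was again a near copy of its neighbour, with centres 2 bp apart. On chromosome IV from 8526181 to 8531741, 6 distinct peaks had combined numbers 803, 648, 2940, 322, 476 and 5975, and both replicates also placed peaks 4 and 5 within their first 1000.

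Peaks that overlap others bear on what counts as a cluster. Of the 1013 gaps between neighbours inside chains, 80 (7.90%) joined peaks that shared at least 1 bp, in 75 chains. For 7 of these gaps the centres were 10 bp or less apart, as at the near copies above. After overlapping peaks were merged, 326 of the 363 chains still held at least 3 regions and 37 no longer did. The shortest chains were of this kind. On X from 12175958 to 12176987, 3 peaks lay within 1030 bp, and peaks 2 and 3 matched the same replicate 1 peak, number 6478. On chromosome III from 4649286 to 4650471, peaks 1 and 2 matched the same replicate 2 peak, number 276. On chromosome V from 14505788 to 14507000, each of 3 peaks had its own counterpart in both replicates, although the first pair overlapped.

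Inside chains, the median distance between neighbouring centres was 1059 bp, with quartiles at 725 and 1425 bp and the rule allowing at most 2000 bp. The commonest spacings were 751 to 1000 bp (188 gaps) and 1001 to 1250 bp (184 gaps). Gaps of 251 to 500 bp were scarce (37), while the 70 gaps of 250 bp or less were shorter than the commonest peak width of 380 bp. The medians were 1093.5 bp in chains of 3, 1024 bp in chains of 4, 993 bp in chains of 5 to 7 and 1131.5 bp in chains of 8 or more, with no steady trend in spacing with size. Pairs had a median gap of 1136 bp.

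Spacing in each replicate taken alone was slightly shorter. When the best 6142 distinct nuclear peaks of each replicate were chained in the same way, the median gap was 1007.5 bp in replicate 1 and 1011.5 bp in replicate 2. The bin of 751 to 1000 bp was the fullest there too, with 233 and 192 gaps, and the bin of 251 to 500 bp held 40 and 33. Over all neighbouring peaks of the combined list, inside chains or not, counts fell from 306 in the bin of 751 to 1000 bp to 170 in that of 1751 to 2000 bp and 89 in that of 3751 to 4000 bp. The counts showed no drop at the 2000 bp limit: 73 neighbours were 1901 to 2000 bp apart and 82 were 2001 to 2100 bp apart. The joined neighbours nearest to the limit, after the chromosome II gap above, were on chromosome V (numbers 2293 and 2530, 1996 bp) and in the 8-peak chain of X (5189 and 3319, 1990 bp). The nearest separated ones were on chromosome V (numbers 4162 and 4843, 2001 bp) and on chromosomes I (4674 and 3340) and III (5216 and 2632), both 2002 bp.

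**Figure D2:**
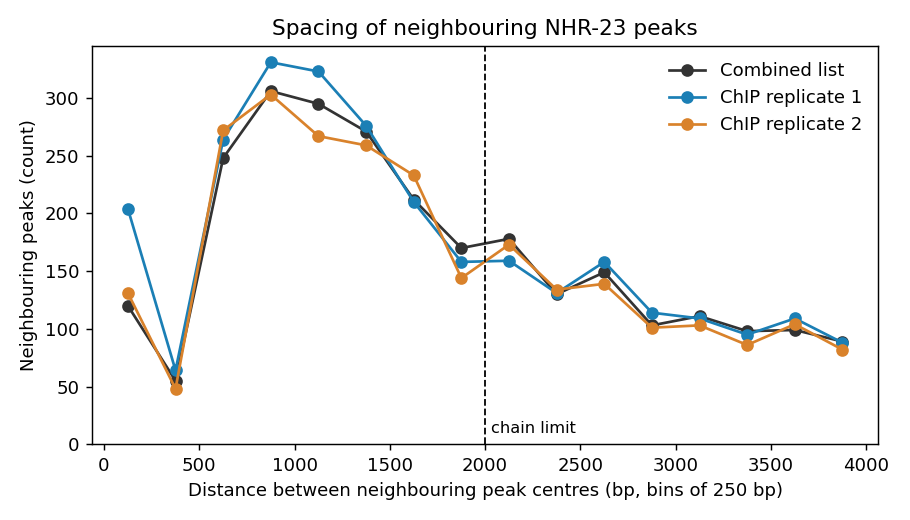
Number of neighbouring peaks by the distance between their centres, in bins of 250 bp, for the combined list and the best 6142 peaks of each ChIP replicate; the dashed line is the chain limit of 2000 bp. All 3 lists have their fullest bin at 751 to 1000 bp and few gaps of 251 to 500 bp, and the counts show no drop at the limit.

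Strength was compared between chained and isolated peaks through the peak number, which the rule did not use. No p-value is given for this or for the comparisons below. Peaks of 1 chain are not independent of each other, and with 1 condition in 2 replicates no exact test over samples exists. In the combined list the groups were nearly the same: the median number was 3071 in chains (interquartile range 1493.75 to 4672.25) and 3030.5 among isolated peaks (1500.5 to 4600.75), and 3235.5 in pairs. The difference of 40.5 changed sign, to -97, once overlapping peaks were merged. Over parts 1 to 4 of the list, the share of chained peaks was 25.7, 24.9, 23.7 and 25.7%, and that of isolated peaks 25.8, 25.1, 24.6 and 24.5%. Chained peaks made up 230 of the first 996 distinct peaks (23.1%), close to their 22.4% of the whole list. Of the first 100, 15 were chained and 63 isolated (95% interval of the chained share 8.65 to 23.5%), and the best chained peak of all had number 12. That peak, picked out after its value was seen, lay on chromosome V from 10897191 to 10897513 and had the replicate numbers 17 and 12.

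At their matching replicate peaks, the combined list's chained peaks had somewhat lower, that is stronger, numbers than its isolated peaks. The best overlapping replicate 1 peak had a median number of 2788 for chained and 3271 for isolated peaks, and the best overlapping replicate 2 peak 2883.5 and 3094. Sharing of replicate peaks moved with this. In replicate 1, 144 chained peaks (10.5%) and in replicate 2, 149 (10.8%) were matched to a replicate peak that another combined peak also matched, against 0 isolated peaks in either. By the nearest rather than the best replicate peak, the medians were 2912.5 for chained and 3297 for isolated peaks in replicate 1, and 3051.5 and 3104 in replicate 2. The 159 chained peaks that overlapped another had a median number of 3734 in the combined list but 2008 and 2052 in the replicates. The direction was the same on 6 of 6 chromosomes in replicate 1 and on 5 of 6 in replicate 2, by the best overlapping peak. The exception was chromosome IV, with 3227 for chained and 2906 for isolated peaks in replicate 2. By the nearest peak, chromosome IV was the exception in both replicates, with 3394 and 3167 in replicate 1 and 3301 and 2910 in replicate 2. In the combined list chained peaks had the lower median on chromosomes II, III and V and the higher one on I, IV and X. Chains built instead from each replicate's own best 6142 peaks did not keep the direction in replicate 1. Its medians were 3089 for chained and 3035 for isolated peaks, and those of replicate 2 were 2997 and 3041.

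**Figure D3:**
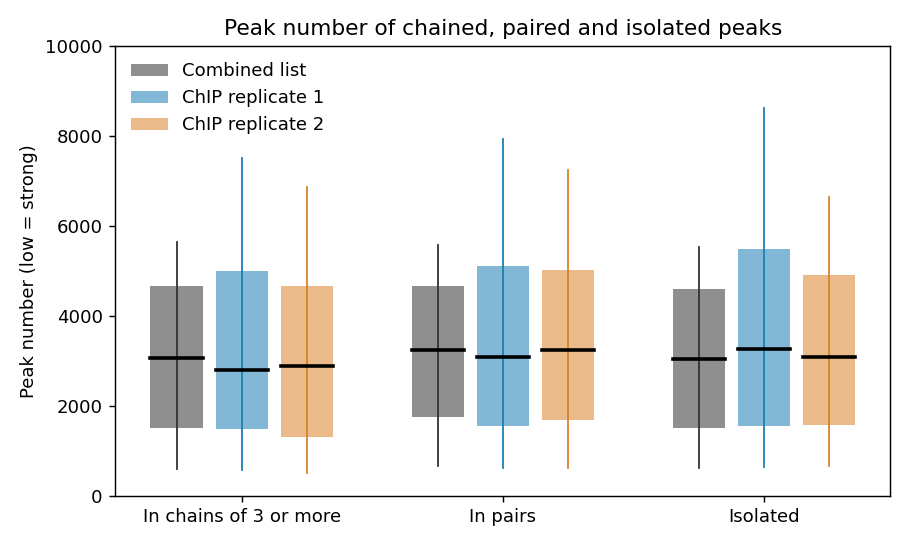
Peak number of peaks in chains, in pairs and isolated, in the combined list and at the best overlapping peak of each ChIP replicate; boxes span the interquartile range, black lines are medians and thin lines run from the 10th to the 90th percentile. The combined medians of chained and isolated peaks are 3071 and 3030.5, and the 3 groups overlap almost completely in every list.

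Chains mixed strong and weak sites. With members placed in the 4 parts alike, chains of these sizes would have members in more than 1 part in 95.8% of cases, and members of both part 1 and part 4 in 37.7%, and the data were close to this. In 350 of 363 chains (96.4%) the best and the weakest member fell in different parts of the 4, and in 136 (37.5%) a member from part 1 stood with a member from part 4. Just 4 chains had every member in part 1, and 3 had every member in part 4. The former, picked out by this property, lay on chromosome III from 5919959 to 5922453 (combined numbers 265, 821 and 1000) and from 8794702 to 8797545 (570, 38 and 1029), on chromosome V from 13787591 to 13790782 (1025, 966 and 1311) and on X from 11059474 to 11062245 (1156, 145 and 1018). Of the 363 chains, 139 (38.3%) had no member in part 1. In chains of 3 the median best number was 1368, the median middle number 3078 and the median weakest 5076.

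Neighbours in a chain differed in strength by about as much as neighbours far apart. The combined numbers of adjacent peaks differed by a median of 1792 inside chains (1013 neighbours), 1779 in pairs and 1772 between neighbours more than 2000 bp apart (4459 neighbours). As a description across neighbours, which share peaks with each other, Spearman's rho was 0.036 inside chains and 0.013 between separated neighbours. It was 0.387 for the 107 neighbours inside chains that were at most 500 bp apart, most of which overlap, although their median difference was 1967. By the nearest replicate peaks, the median difference over all neighbours inside chains was 2369 in replicate 1 and 2134.5 in replicate 2. Between neighbours more than 2000 bp apart it was 2639 and 2190. Chained neighbours matched to the same replicate peak count as not differing, which lowers the values inside chains by construction. The strongest member was about as frequent at each place. In chains of 3 it was the left, middle and right peak in 76, 76 and 69 cases. The strongest was thus at an end in 65.6% of these 221 chains (95% interval 58.9 to 71.9), beside 66.7% if each place were equally frequent. In chains of 4 it was at an end in 55.4% of 83 (44.1 to 66.3), beside 50%. In the replicates the shares for chains of 3 were 67.1% and 66.1%.

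Median peak width was 380 bp in chains, in pairs and among isolated peaks. Exactly this width was found in 52.0% of chained (49.4 to 54.7), 61.1% of paired (58.5 to 63.8) and 60.3% of isolated peaks (58.6 to 61.9). The groups also differed in the share of wide peaks. Those wider than the commonest 380 bp made up 97 of 1376 chained peaks (7.05%, 5.75 to 8.53), 34 of 1328 paired (2.56%, 1.78 to 3.56) and 58 of 3438 isolated peaks (1.69%, 1.28 to 2.18). Most wide peaks were in part 1 of the list (80 of the 97 chained and 55 of the 58 isolated), and within part 1 alone the share was 22.7% of 353 chained (18.4 to 27.4) and 6.21% of 886 isolated peaks (4.71 to 8.00). Leaving out chained peaks that overlapped another gave 20.0% of 310 (15.7 to 24.9). At the matching replicate peaks of these 310 and 886, widths above the replicate's own commonest value were found in 9.35% and 1.92% in replicate 2 (commonest 364 bp). In replicate 1 (commonest 384 bp) the shares were 2.26% (0.913 to 4.60) and 0.791% (0.319 to 1.62), whose intervals overlap. The share of wide peaks was 4.83% in chains of 3 (3.32 to 6.75) and 7.23% in chains of 4 (4.69 to 10.6). It was 10.5% in chains of 5 to 7 (7.19 to 14.6) and 11.6% in chains of 8 or more (5.92 to 19.8). Intervals of neighbouring sizes overlap. Without peaks that overlapped another, the shares were 3.55, 5.70, 8.91 and 9.88%. The median combined number fell over the same sizes, from 3125 to 2824, and width was not compared between sizes at like strength. The 16-peak chain of X had 6 wide peaks, the widest of 812 bp. The intervals here and below are exact binomial (Clopper-Pearson) ones at 95%; they cover counting error only and take peaks as independent. How the calling sets the width of a peak is not given in the sources used here.

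Between whole chromosomes, the share of peaks in chains did not follow mean peak density. Chromosome III was the densest, with 76.2 distinct peaks per Mb, yet 20.1% of its peaks were chained (17.7 to 22.6). Chromosome V was the sparsest, with 46.3 per Mb, and 24.7% were chained (22.0 to 27.5). The other shares were 19.8% on I, 24.1% on II, 21.3% on IV and 24.1% on X, and all 6 intervals overlap each other, those of I and V barely. In the best 6142 peaks of replicate 1 the shares on III and V were 26.8% and 26.4%, and in those of replicate 2, 21.3% and 25.5%. Replicate 1 thus did not show the difference between these chromosomes. Within every chromosome of the combined list, the denser central part, defined below, had the higher chained share. On V it was 29.5% at 68.1 peaks per Mb, against 20.0% at 35.4 per Mb in the outer parts. On IV in replicate 1 the chained share was 20.1% in the central and 21.9% in the outer parts. X held 77 chains with 296 peaks, at 4.35 chains per Mb, and the autosomes 286 chains with 1080 peaks, at 3.47 per Mb. Chromosomes II and III were near X, at 4.06 and 4.21. X also had more peaks, 69.4 per Mb against 59.6 on the autosomes. The chained shares were 24.1% (21.7 to 26.6) on X and 22.0% (20.8 to 23.2) on the autosomes, with overlapping intervals. They were 23.1% and 25.9% in replicate 1, and 22.9% and 22.2% in replicate 2.

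**Figure D4:**
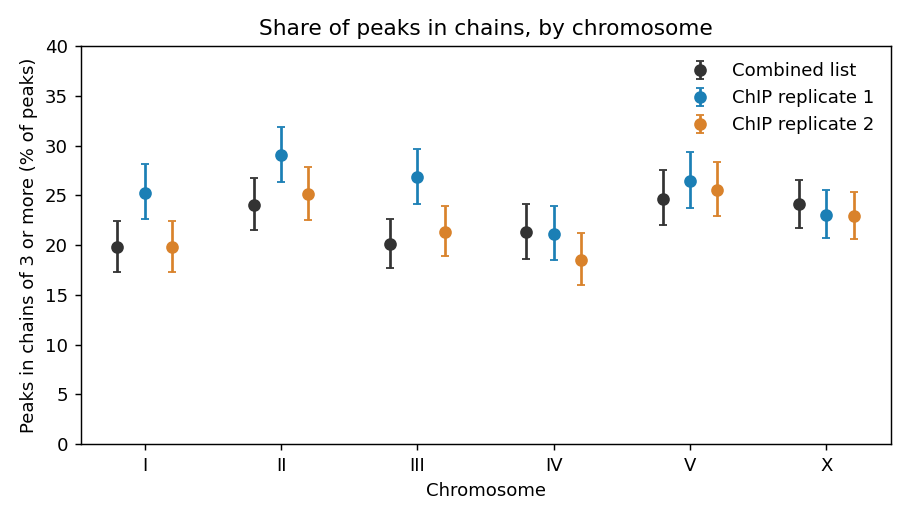
Share of peaks that lay in chains of 3 or more on each chromosome, in percent of that chromosome's peaks, for the combined list and the best 6142 peaks of each ChIP replicate; bars are exact 95% binomial intervals. In the combined list the shares run from 19.8% on chromosome I to 24.7% on V, whose intervals barely overlap. Replicate 1 is higher than the other lists on chromosomes I, II, III (26.8%) and V.

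Chains on the autosomes lay in the middle of the chromosomes more often than isolated peaks did. With each chromosome divided into 3 parts of equal length, 51.3% of the 1080 autosomal chained peaks were in the central part (48.3 to 54.3), against 45.2% of paired (42.2 to 48.3) and 40.1% of isolated peaks (38.3 to 42.0). The order of chained above isolated held on all 5 autosomes, from 47.4% and 41.0% on chromosome IV to 58.6% and 42.1% on V. Peak density was higher in the same part, 78.0 distinct peaks per Mb against 50.3 in the outer parts, so density and chaining cannot be told apart here. Chained peaks were 25.8% of the central autosomal peaks and 19.0% of the outer ones. Replicate 2 alone gave 53.4% of chained and 41.6% of isolated autosomal peaks in the central part, and replicate 1 alone 50.9% and 42.2%. In replicate 1 chromosome IV went the other way, with 40.1% and 41.3%.

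On X the contrast was smaller. There 36.1% of 296 chained peaks were central (30.7 to 41.9), and 32.7% of 649 isolated peaks (29.1 to 36.4). Density was nearly even along X, at 70.3 and 68.9 peaks per Mb in the central and outer parts, and 25.8% and 23.2% of the peaks there were chained. In the replicates alone the chained and isolated shares in the centre of X were 38.5% and 31.5% in replicate 1, and 42.2% and 34.6% in replicate 2. Whether X and the autosomes differ in this respect was not tested.

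Nearly every chained peak was present in both replicates, which is largely built in because the combined list was derived from them. With an overlap of at least 1 bp, 1356 of 1376 (98.5%, 97.8 to 99.1) were matched in both, and 3380 of 3438 isolated peaks (98.3%, 97.8 to 98.7). Positions matched less closely in chains and pairs than at isolated sites. Replicate peaks with centres within 100 bp were found in both replicates for 87.4% of chained (85.6 to 89.1), 88.3% of paired (86.5 to 90.0) and 92.2% of isolated peaks (91.2 to 93.1). Without the peaks that overlapped another, the share was 89.7% in chains (87.9 to 91.4) and 89.9% in pairs (88.1 to 91.5), with intervals that slightly overlapped that of isolated peaks. The nearest replicate peaks of the same site were a median of 37 bp apart in chains, 31 bp in pairs and 26 bp at isolated sites. Across the peaks found in both replicates, and as a description only, the replicate numbers correlated with rho 0.598 in chains (1356 peaks), 0.574 in pairs (1312 peaks) and 0.645 at isolated sites (3380 peaks).

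Chains were also looked for in each replicate alone. In the full replicate lists, 98.9% of the chains were found in replicate 1 and 98.3% in replicate 2, but there 69.3% and 74.1% of all peaks are chained, so shorter lists were used. Among the best 6142 peaks of replicate 1, 227 of the 363 chains (62.5%, 57.3 to 67.5) were found again as a chain with at least 3 of its peaks in the same span. In replicate 2 they were 266 (73.3%, 68.4 to 77.8). Both replicates held 180 of them (49.6%, 44.3 to 54.9), and neither held 50 (13.8%, 10.4 to 17.8). Recovery was higher for larger chains: both replicates held 38.5% of the chains of 3, 56.6% of those of 4 and 81.4% of those of 5 or more, and 0 of the 59 largest chains were missing from both. Every chain needed just 3 peaks in its span, whatever its size, so the rise with size is partly fixed by the criterion. All 9 chains of 8 or more peaks were found in both, as were 11 of the 12 chains of 7. For the X run, 17 of the best peaks of each replicate overlapped its span, and for the chain from 10546019 on chromosome II there were 13 in replicate 1 and 9 in replicate 2.

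**Figure D5:**
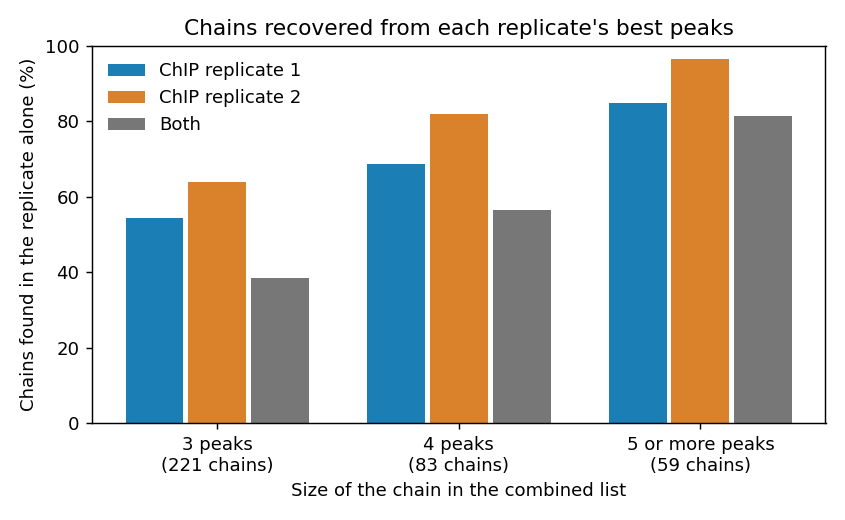
Share of the combined list's chains that were found as chains of at least 3 peaks in the best 6142 peaks of each ChIP replicate alone, and in both, by chain size. Recovery in both replicates rises from 38.5% for chains of 3 peaks to 81.4% for chains of 5 or more. The same 3 peaks sufficed at every size, so this rise is partly fixed by the criterion.

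Of chained peaks, 64.2% (61.6 to 66.8) overlapped a chained peak of replicate 1 and 72.7% (70.2 to 75.0) one of replicate 2. For paired peaks these shares were 15.2% and 9.71%, and for isolated peaks 2.79% and 1.37%. A contrast of this kind is in part built in, because the combined list was derived from the replicates. The replicates compared with each other shared fewer chains than either shared with the combined list. Of 381 chains of replicate 1, 192 (50.4%) were found in replicate 2, and of 355 of replicate 2, 187 (52.7%) in replicate 1.

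The full replicate lists, which run on to weak entries, filled many of the gaps. Within 2000 bp of their centre, 75.0% of isolated peaks had at least 1 further replicate 1 peak, 70.3% a further replicate 2 peak and 59.7% both. These lists are dense, with 29963 and 25121 distinct nuclear peaks. The share that density alone would give was not computed. Among chained peaks 99.9% had a further peak in each replicate, and among paired peaks 96.8%. These 2 shares are largely fixed by the rule, which gives both groups another combined peak within 2000 bp. In the full lists, 61.8% of isolated peaks overlapped a peak of a replicate 1 chain and 57.7% a peak of a replicate 2 chain. These shares are below the 69.3% and 74.1% of all full-list peaks that are chained. Isolation at 2000 bp thus refers to the combined list alone. Inside the 363 chain spans the full lists placed 1901 and 1898 peaks, against 1376 in the combined list, and 250 and 256 chains held more replicate peaks than combined ones. The X run held 23 peaks in each full list beside its 16 combined ones.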

How the data were processed

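The authors deposited peak lists for 2 ChIP replicates and a combined list; peaks were called with SPP and filtered by the irreproducible discovery rate (IDR), per the file headers and source field, on WormBase build WS220. Of versions, settings, depth and replicate merging the sources used here say nothing. The deposited score is constant in the combined list and has a ceiling in the replicates, so the running peak number was used; score and number ran in opposite order (Spearman rho -0.998 and -0.947 over whole replicate lists). This cannot check the order at the ceiling, where 73.8% of chained and 69.3% of isolated peaks stood in replicate 1 and 98.6% and 98.8% in replicate 2. Rows with the same chromosome, start and end were dropped (lowest number kept), and centres within 2000 bp were chained. Replicate peaks were matched at 1 bp of overlap, taking the lowest number; for named chains, the nearest centre. Chromosomes ran to the last base of any peak. Regions were named as the chains with the most members (10, ties by best number), the lowest number of member 3 in strength (5), the smallest and the largest span (3 each), and those nearest to the limit. Members and lists were chosen with earlier results of these data known. Width, matching by nearest centre, neighbour differences and the overlap split were added after the data were seen. The chaining was tested on simulated data. Tools were scipy 1.17.1, pandas 2.3.3, matplotlib 3.10.9 and numpy 2.4.6 under Python 3.11.15.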

Additional observations from a re-analysis of the deposited data

How the results depend on the processing

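No paired analysis was possible because these values come from no test and Input was not used here. Of 54 alternatives over 12 results, 33 left the value within its spread (the spread between replicates or the binomial interval) or, for counts, within 1.5 times. With a 1000 bp limit, 321 peaks formed 97 chains, their median gap was 715 bp and the strongest peak of a chain of 3 was at an end in 75.7%; with 3000 bp the median gap was 1270 bp. These move by construction of the limit, except the end share. That share came from the chains of 3 among the 97 chains and has no interval here. Whether it differs from the 65.6% at 2000 bp was not tested. The better 50% of the combined list gave 243 peaks in 73 chains. Merging overlapping peaks changed the chained minus isolated median number from 40.5 to -97 and the median gap to 1109 bp. With the best 6142 peaks of replicate 1 or of replicate 2 in place of the combined list, that difference was 54 or -44. The gap was then 1007.5 or 1011.5 bp and the central share on X 38.5 or 42.2%. The middle 50% of each chromosome held 74.3% of autosomal and 57.4% of X members, being a longer part. Members matched in both replicates were 87.4% when centres had to lie within 100 bp, and 70.1% at a reciprocal overlap of 50%. Chains found in replicate 1 and replicate 2 were 98.9% and 98.3% in the full lists, where 69.3% and 74.1% of all peaks are chained, and 21.8% and 22.3% in the better 50% as many. The chained minus isolated difference in the combined list thus had no stable sign, for which the cause was not tested.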
